A study of Mus musculus with 8 samples.

Results

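The mouse major histocompatibility complex (H2) on chromosome 17 and the natural killer receptor (Klr) complex on chromosome 6 were examined on 8 Agilent 244K comparative genomic hybridisation arrays. Members were all non-control probes placed on build mm9 at chr17:33500000-38000000 (H2) or chr6:128500000-131600000 (Klr). They numbered 1083 of the 221455 autosomal probes and of the 234018 placed probes, with 765 in the H2 complex and 318 in the Klr complex. The median spacing between neighbouring probes was 4.75 kb in the H2 complex and 6.66 kb in the Klr complex. The widest gap between probes was 53.9 kb in the H2 complex and 130 kb in the Klr complex, the latter from 130680717 to 130811022.

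Each array carried DNA of a SEC31A-JAK2 mouse in Cy5 and DNA of a normal wild-type mouse in Cy3, and the labels give the Balb/c strain for both. SEC31A-JAK2 is a fusion of the SEC31A gene with the JAK2 kinase gene, and bone marrow transplantation is the growth protocol named for all samples. The sample DNA came from 3 primary T-lymphoblastic lymphomas (T-LBL; M7 spleen, M9 spleen and M12 neck lymph node), from 1 primary myeloid hyperplasia (M10 bone marrow) and from 4 secondary T-LBL derived from mouse 12 (M12.49 pancreas, M12.50 neck lymph node, M12.52 pancreas, M12.53 pancreas). Age, sex and the promoter driving the fusion are not given in the sources used here, and each tissue can hold host and donor cells. The 4 secondary samples and M12 come from the same first mouse, and a test over all arrays takes these relatives as separate samples. Every array used a Balb/c reference, but whether the reference DNA came from the same mouse on each array is not given in the sources used here.

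The H2 complex encodes the class I molecules (H2-K, H2-D and the many Q, T and M genes), which present peptides to T cells and act as ligands of natural killer cell receptors, and the class II molecules (H2-A, H2-E, H2-O and H2-DM), which serve in antigen presentation to helper T cells. The Klr complex encodes lectin-like receptors of natural killer cells: Klrb1 receptors with their Clec2 ligands, the Klrd1, Klrc and Klrk1 receptors (CD94, NKG2 and NKG2D), and the Klra (Ly49) family, whose members bind class I molecules. Both complexes are made of duplicated genes whose number and sequence differ between inbred strains. The mouse reference genome comes from C57BL/6J, which carries another H2 haplotype than Balb/c and a larger Klra cluster. Probes of a reference-based array can meet missing, extra or divergent copies in Balb/c DNA of either source, and such a difference would be shared by both dyes and leave their ratio near 0.

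In the RefSeq gene table (assembly GRCm38.p6) the Klr complex reads Klrb1 and Clec2 genes first, then Cd69, Klre1, Klrd1, Klrk1, the Klrc genes, Klri, Klrh1 and the Klra genes. The H2 complex reads H2-K, the class II genes with Tap1 and Tap2 (peptide transporters), C4b and C4a (complement), Tnf, H2-D1, and then the Q, T and M class I genes. The probes lie on mm9, so genes were not placed on individual probes. To show how alike neighbouring genes of these families are at the length of an array probe (a median of 60 bases), 300-base promoter windows from RefSeq (GRCm38.p6, 250 bases before and 50 after each start) were compared. Among class I genes 9 of 25 windows (36%) held a run of at least 60 bases found in another gene's window, against 0 of 9 class II windows. Among Klra genes the count was 2 of 13 (15.4%), among the other Klr and Clec2 genes 5 of 22 (22.7%), and over all promoter windows 2193 of 32851 (6.68%). The longest shared Klra run (75 bases, capitals) joins Klra9 (chr6:130193063-130193362, minus strand) and Klra3 (chr6:130337577-130337876, minus strand), which encode Ly49 receptors, and the longest class I run (86 bases, capitals) joins H2-T23, which encodes the Qa-1 molecule bound by CD94/NKG2 receptors (chr17:36032652-36032951, minus strand), and the pseudogene H2-T-ps (chr17:36111627-36111926, minus strand).
Klra9: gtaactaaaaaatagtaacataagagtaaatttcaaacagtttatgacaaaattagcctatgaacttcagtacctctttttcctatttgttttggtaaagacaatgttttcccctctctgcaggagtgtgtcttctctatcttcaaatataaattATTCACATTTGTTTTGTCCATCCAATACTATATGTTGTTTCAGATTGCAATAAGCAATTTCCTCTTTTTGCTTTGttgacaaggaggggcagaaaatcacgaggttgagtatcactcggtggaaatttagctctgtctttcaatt
Klra3: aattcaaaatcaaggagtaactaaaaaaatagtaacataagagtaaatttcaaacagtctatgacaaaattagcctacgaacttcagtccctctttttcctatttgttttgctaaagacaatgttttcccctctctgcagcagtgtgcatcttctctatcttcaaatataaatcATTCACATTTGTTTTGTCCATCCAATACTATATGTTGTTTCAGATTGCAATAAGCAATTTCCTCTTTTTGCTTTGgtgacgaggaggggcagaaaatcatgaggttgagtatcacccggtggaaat
H2-T23: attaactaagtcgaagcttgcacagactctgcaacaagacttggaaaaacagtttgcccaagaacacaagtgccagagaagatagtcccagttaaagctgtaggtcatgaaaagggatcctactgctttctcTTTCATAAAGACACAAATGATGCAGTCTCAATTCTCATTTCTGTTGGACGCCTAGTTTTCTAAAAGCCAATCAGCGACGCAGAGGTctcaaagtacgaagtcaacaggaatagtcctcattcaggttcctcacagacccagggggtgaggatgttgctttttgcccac
H2-T-ps: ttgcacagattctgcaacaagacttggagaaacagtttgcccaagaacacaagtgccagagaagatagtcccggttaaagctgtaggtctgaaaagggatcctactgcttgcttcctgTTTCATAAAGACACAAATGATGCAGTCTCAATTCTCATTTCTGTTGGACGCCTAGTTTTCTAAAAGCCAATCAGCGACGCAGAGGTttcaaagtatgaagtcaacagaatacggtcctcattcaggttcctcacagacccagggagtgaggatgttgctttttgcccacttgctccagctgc
A run of this kind is a description of the reference genome in these windows, and whether member probes fall in such runs was not tested.

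Signals are given as log2 processed intensities relative to each array's autosomal median, separately for each dye, and ratios as the centred log2 of sample over reference. The M7 array stood apart. Only 55.2% of its autosomal reference spots were flagged well above background, against 98.7% to 99.8% on the other 7 arrays. Noise per probe was estimated as an SD from the interquartile range of the differences between neighbouring probes' ratios. It was 0.47 on M7 and 0.43 on M12.52, against 0.22 to 0.28 on the rest. On M7 48 H2 and 11 Klr probes carried outlier flags and were dropped. M12 was alone in its scan, on its slide and in its probe annotation (mm8), so these cannot be told apart from the M12 sample and its reference. M7 was also alone in its scan, so its values cannot be told apart from that scan.

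Nearly all member probes gave signal from Balb/c DNA. Over the 7 arrays without M7 the reference was well above background on every array for 738 of 765 H2 probes (96.5%) and 285 of 318 Klr probes (89.6%), against 97.5% of autosomal probes. The sample was well above background on all 7 for 89.3% of H2 probes and 83.6% of Klr probes, against 92.5% of autosomal probes. Probes that passed in neither dye on any of the 7 arrays numbered 3 in the H2 complex and 4 in the Klr complex, against 231 (0.104%) over the autosomes. The Klr complex held a larger share of probes with weak signal than the H2 complex, in both dyes.

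Weak signal in the Klr complex was deepest in a pair of short stretches, with further dim probes elsewhere, and was shared by both dyes. Bins of 100 kb are named by their start on mm9 in Mb, and those with at least 3 probes (45 H2 and 28 Klr bins of 22888 on the autosomes) were described. The lowest Klr bins were 129.9 (13 probes), 131.5 (8 probes) and 130.0 (9 probes), at ranks 30, 38 and 58 from the lowest of all autosomal bins. In the lowest of them the mean over 8 arrays was −2.37 in the reference and −2.25 in the sample. Of the Klr bins, 6 of 28 lay in the lowest 1% of autosomal bins (also 131.4, 128.8 and 130.1), and 1 of 45 H2 bins did. Signals of different probes depend on each probe's own sequence, so these ranks describe signal on the array and give no copy number.

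In the bin at 129.9 Mb (chr6:129900001-130000000) the reference signal was −1.06 on M7, −2.61 on M9 and −3.02 on M12 among the primary T-LBL, −2.44 on the myeloid array M10, and −3.06, −2.38, −2.85 and −1.50 on M12.49, M12.50, M12.52 and M12.53. In the sample dye the same arrays, in that order, were at −1.65, −2.16, −2.85, −2.27, −2.66, −2.33, −2.38 and −1.71. Every array was below its median by more than 1 in both dyes, and M7 and M12.53 were the least low in both. Across the 3 bins from 129.9 to 130.2 Mb the mean reference signal was between −2.40 (M12.49) and −0.74 (M7), and the sample between −2.19 (M12.49) and −0.97 (M12.53). With another background correction (normexp with an offset of 50, which raises the dimmest signals) the bin at 129.9 Mb was at −0.37, rank 203, and the bin at 131.5 Mb at −0.51, rank 41, so the size of the dip changed with the background method.

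Within these stretches most probes were dim or intermediate, with a few bright ones between them. Of the 31 probes from 129.9 to 130.2 Mb, 15 were at −1 or below in both dyes on all 7 arrays without M7, 4 were bright and 12 lay between, and no more than 3 dim probes followed each other. The probe at chr6:129908813-129908872 averaged −4.97 ± 1.16 in the reference and −4.96 ± 0.89 in the sample (SD, n = 8) and was well above background on 0 arrays in either dye. Its neighbour at chr6:129914428-129914487 averaged 0.35 ± 0.52 and 0.65 ± 0.18 and was well above background on all 8 arrays in both dyes. Across the 31 probes the means of the dyes correlated at r = 0.99, a description over probes of a single stretch that share the arrays and the spots. In the distal stretch from 131.4 to 131.6 Mb, 6 of 11 probes were dim, 1 was bright and 4 lay between.

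Counted over all members, 34 of 318 Klr probes (10.7%, exact 95% binomial interval 7.52% to 14.6%) and 32 of 765 H2 probes (4.18%, 2.88% to 5.85%) were at −1 or below in both dyes on all 8 arrays, against 2.97% of autosomal probes. Of the 34 Klr probes, 12 lay from 129.9 to 130.2 Mb and 5 from 131.4 to 131.6 Mb, and the rest lay outside both stretches, among them 4 in the bin at 128.8 Mb. The intervals treat probes as separate draws and cover counting error only. Without M7 the shares were 15.1%, 7.58% and 5.58%. The Klr complex held the larger share with and without M7. At a threshold of −2 on all 8 arrays they were 5.03% for Klr, 0.915% for H2 and 0.419% for the autosomes, and without M7 6.29%, 1.70% and 0.735%. At −0.5 they were 17.6%, 9.93% and 8.58% on all 8 arrays and 23.9%, 17.9% and 14.9% without M7. Probes not well above background in either dye on any of the 8 arrays were 3 of 318 Klr probes and 3 of 765 H2 probes, against 0.0926%. The Klr share was above the autosomal share at each signal threshold, while the H2 share was within 1.5 times the autosomal share at −0.5 and −1 and above that at −2. The H2 probe nearest inside the threshold of −1 (chr17:33878645) had its highest signal at −1.01, and the Klr probe nearest outside (chr6:130003423) at −0.99.

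The H2 complex held higher and more even signal. Its lowest bin was 33.6 (chr17:33600001-33700000, 10 probes, mean −1.07, rank 166), followed by 35.8 at −0.76 and 35.7 at −0.69. Its highest bins were 35.5 at 1.31, 34.9 at 1.18 and 35.4 at 0.83, and 2 of 45 H2 bins lay in the highest 1% of autosomal bins, whereas 0 of 28 Klr bins did. The highest Klr bins were 131.0 at 0.68 (3 probes), 130.9 at 0.57 and 130.8 at 0.50, next to the probe-poor gap.

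Averaged over all its probes the H2 complex was at the array median, with a reference mean of −0.00017 ± 0.14 and a sample mean of 0.0060 ± 0.14 (SD, n = 8). The Klr complex was below it, at −0.43 ± 0.09 in the reference and −0.39 ± 0.10 in the sample. The Klr mean was closer to the array median under other summaries that give the dimmest signals less weight: it was −0.14 in the reference with probes well above background on at least 7 arrays, −0.20 as a median of probes and −0.0043 after normexp correction. Within each array the dyes followed each other over member probes at r between 0.91 and 0.99, against 0.90 to 0.97 over autosomal probes.

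The log2 ratio, which would carry a copy change of the tumour or a strain difference between sample and reference, stayed near 0 in both complexes. The H2 mean was 0.032, −0.048 and 0.081 on M7, M9 and M12, −0.015 on M10, and −0.014, −0.044, 0.00013 and −0.050 on M12.49, M12.50, M12.52 and M12.53. Primary T-LBL averaged 0.021 ± 0.065 (SD, n = 3) and secondary T-LBL −0.027 ± 0.024 (SD, n = 4), and the groups overlapped. The Klr mean was −0.0054 ± 0.047 in primary T-LBL, 0.067 on the myeloid array and 0.026 ± 0.047 in secondary T-LBL, again overlapping. The M7 and M12.53 arrays were least low in the reference in the dim Klr stretch from 129.9 to 130.2 Mb. They were the only arrays with a negative ratio there, at −0.58 and −0.086, and the other 6 lay between 0.13 and 0.35. The reference is part of the ratio, so these are not separate observations. With only probes well above background in both dyes, M7 was at −0.30 and M12.53 at −0.024 ± 0.064 (SE). The other 6 then lay between 0.0056 (M12.49) and 0.22 (M12.52). The largest mean over any member bin, in size, was 0.17 for H2 and 0.28 for Klr in primary T-LBL and 0.11 and 0.32 in secondary T-LBL. On the single myeloid array the farthest bins were at −0.20 (H2, 37.1 Mb) and 0.51 (Klr, 131.0 Mb, 3 probes).

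No member bin passed the test in any comparison of the tumours (limma with Benjamini-Hochberg adjustment over 22888 autosomal bins, adjusted p under 0.05). For secondary T-LBL against the reference 0 of 73 member bins were called, against 34 autosomal bins (0.149%), all lower, and 1 member bin (1.37%) had an unadjusted p under 0.05, against 4.95% of all bins. For primary T-LBL 0 of 73 were called, against 0%, and 5 (6.85%) had an unadjusted p under 0.05, against 3.91%. Secondary minus primary gave 0 of 73 against 0% (2 unadjusted, 2.74%, against 1.38%). The mouse 12 lineage (M12 and its 4 secondary tumours) minus the other 3 mice gave 0 of 73 against 0.144% (3 unadjusted, 4.11%, against 1.86%).

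The 95% intervals are those of a group mean in each bin, and their farthest ends over bins are given. For secondary T-LBL these were −0.29 and 0.24 over the H2 bins and −0.43 and 0.82 over the Klr bins. For primary T-LBL they were −0.33 and 0.31, and −0.63 and 0.52. Most bins were measured more closely, with a median SE over member bins of 0.056 for secondary and 0.065 for primary T-LBL. A loss or gain in a fraction of the cells that keeps the group mean inside a bin's own interval cannot be seen in that bin. A change in a single tumour is not bounded by these intervals. The median difference of secondary from primary was −0.05 over H2 bins and 0.03 over Klr bins, against −0.01 over all bins. Within scan 3, where M12.49 and M12.52 met M9, secondary minus primary was 0.041 for the H2 mean and −0.058 for the Klr mean, opposite in sign to the −0.048 and 0.031 over all arrays. Slide numbers follow the barcodes in the file headers, and M12.50 and M9 share number 2 though they belong to different scans. Whether they shared a physical slide is not given in the sources used here. Between them secondary minus primary was 0.0048 for H2 and 0.027 for Klr, the latter with the sign over all arrays.

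A fixed difference between the sample and reference genomes would give a ratio of the same sign on all 8 arrays. No H2 or Klr probe was at or above 0.25, or at or below −0.25, on all 8 arrays (0 of 1083), against 11 higher and 31 lower autosomal probes of 221455. Without M7 the count was again 0 of 1083, against 52 higher and 108 lower. The autosomal shares were only 0.0050% higher and 0.014% lower on all 8 arrays, so a count of 0 among the members is near them. Noise on single arrays can also keep a fixed difference from passing on every array. Whether such a difference was missed was not tested.

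The bins whose ratio varied most between arrays were dim Klr bins. At 131.4 Mb (3 probes) the ratio was −0.98, 0.67 and 0.15 on M7, M9 and M12, 0.10 on M10, and 0.52, 0.27, 0.77 and −0.29 on the secondary arrays M12.49, M12.50, M12.52 and M12.53. Primary and secondary arrays overlapped, and secondary T-LBL was at 0.32 ± 0.22 (SE) with an interval from −0.18 to 0.82 (limma adjusted p = 0.839). With only probes well above background in both dyes the same arrays were between −0.49 and 0.43. The SD over arrays was 0.57 there, 0.36 at 129.9 Mb and 0.35 at 130.0 Mb, against a median of 0.12 over Klr bins, 0.11 over H2 bins and 0.11 over autosomal bins. In the H2 complex the most variable bins were 37.1 (SD 0.19), 34.1 (0.17) and 35.7 (0.16). In the bin at 37.1 Mb M7 was at 0.38 and the other 7 arrays between −0.20 and 0.03.

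The reference DNA on the M12 array was set against the other 7 references, to see whether its Balb/c DNA gave another pattern in these complexes. Over member probes measured on all 8 arrays the M12 reference correlated with the median of the other 7 at r = 0.956 (H2) and 0.962 (Klr), against 0.943 over autosomal probes, as a description over probes. It lay outside the range of the other 7 for 14.5% of H2 probes and 14.8% of Klr probes, against 13.5% of autosomal probes. Differences of 1 or more from that median were seen for 1.96% of H2 and 3.95% of Klr probes, against 0.671% of autosomal probes. The same measure reached 6.43% of H2 probes on M9 and 13.3% on M12.53, so M12 was not the array farthest from the rest.

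In limma 0 of 73 member bins differed between the M12 reference and the other 7 references, against 0% of autosomal bins, with 0 member bins at an unadjusted p under 0.05, against 0.424%. The sample dye of M12 gave 0 of 73 against 0% (1 unadjusted, against 1.34%). M12 is 1 array, assumed in these fits to vary like the others, and the intervals of the reference contrast ran from −1.69 to 1.12 over H2 bins and from −2.22 to 1.26 over Klr bins. Probe by probe 0 of 1083 members were called, against 0.00271% of 221356 probes (0.00136% in each direction), and 12 members (1.11%) had an unadjusted p under 0.05, against 0.469%.

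Single probes with the largest difference between the M12 reference and the others are given next. Probe A_67_P08767428 (chr17:35226955-35227014) was at −1.06 in the M12 reference and between 0.51 and 1.05 in the other 7, a limma difference of −1.86 ± 0.28 (SE, adjusted p = 0.284), and its M12 sample signal of −0.08 lay inside the range of the other samples. It passed the threshold without M7 (adjusted p = 0.0407) and with array weights (0.0149), and its adjusted p ranged from 0.0149 to 1 over 13 alternatives. Probe A_53_P125912 (chr17:34974069-34974113) was at −0.69 in the M12 reference and between 0.64 and 1.43 in the rest, while its M12 sample was at 1.10, inside the range of the other samples, so its ratio was 1.78 on M12.

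For other probes both dyes of M12 moved together. Probe A_53_P171319 (chr17:36276063-36276122) was at −2.03 in the reference and −1.57 in the sample of M12, against medians of −0.01 and 0.04 on the other arrays. Probe A_53_P101181 (chr17:33888518-33888577) went the other way, at 0.12 and −0.19 against medians of −1.31 and −1.40. The Klr probe farthest below the other references, A_67_P01446275 (chr6:129946428-129946487), was at −4.50 against −2.66 but was not well above background on M12. Of the 10 named Klr probes, 3 were not well above background in the M12 reference, so their differences are not exact. Of the rest, 4 were higher in M12 by 0.64 to 1.05 and 3 lower by −1.57 to −1.36. The last of these passed on 3 of the other 7 references.

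Per bin the M12 reference lay outside the range of the other references in 5 of 28 Klr bins and 3 of 45 H2 bins, against 11.7% of autosomal bins. It was below all others in those 5 Klr bins and in 2 H2 bins, against 8.74%. The M12 sample dye was outside the range in 10 of 28 Klr bins and 5 of 45 H2 bins, against 20.5%, and below all other samples in those 10 and in 3 H2 bins, against 13.3%. Both dyes of M12 were low in part of the Klr complex, and the Klr ratio of M12 was −0.038.

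The M12 ratio was raised over the middle of the H2 complex. From 34.0 to 36.3 Mb (422 probes) it averaged 0.16 ± 0.01 (SE over probes), and the other arrays were between −0.085 (M12.50) and 0.047 (M7). The stretch was chosen after the values were seen, as one where most M12 bins lay above 0, so it is given without a test. All 23 bins were above 0 on M12, and M12 was the highest of the 8 arrays in 15 of them. M12 was the highest in 9.47% of autosomal bins and in 3 of the 22 other H2 bins. The choice of the stretch favours high counts for M12 inside it, so the contrast with other bins is no support for the shift. In the single dyes M12 was at 0.16 in the sample and −0.02 in the reference there, both inside the range of the other arrays. That range was −0.20 (M9) to 0.54 (M7) in the sample and −0.14 (M9) to 0.48 (M7) in the reference. The secondary tumours of the same mouse did not share the shift, at −0.0056, −0.085, 0.024 and −0.073 on M12.49, M12.50, M12.52 and M12.53. This stretch also holds the 3 H2 bins with the highest signal, and the low bins at 35.8 Mb (−0.76) and 35.7 Mb (−0.69). Over the 45 H2 bins the M12 ratio correlated with the other arrays' reference signal at r = 0.485, a description over bins of shared probes. The part that signal level, scan, slide or sample have in the shift was not tested. The lead of M12 over the other arrays changed with the settings. With centring on the mode M12 was at 0.15, the highest other array at 0.13, and M12 was the highest in 12 of the 23 bins. With normexp M12 was at 0.25 and the highest other array at 0.14. With the filter on dim probes or bin medians M12 stayed at 0.16 and the highest other array was at 0.069 or 0.046.

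Single-dye signal differed between scans over much of the autosomes, and in bins of both complexes. The bins with the largest reference difference of each complex serve as examples. Scan 2 held M10, M12.50 and M12.53, and scan 3 held M9, M12.49 and M12.52. In the Klr bin at 130.1 Mb the reference was at −0.90, −0.92 and −0.02 in scan 2 and at −1.79, −1.74 and −1.85 in scan 3, without overlap. The sample was at −0.69, −0.69 and −0.13 against −1.52, −1.73 and −1.55. In the H2 bin at 36.2 Mb the reference was at 0.08, 0.10 and 0.66 against −0.85, −0.59 and −0.63. The ratio of scan 2 differed from that of scan 3 by −0.06 ± 0.10 in the first bin and −0.02 ± 0.08 in the second (SE). Arrays of the scans did not overlap in the reference for 33 of 45 H2 bins and 14 of 28 Klr bins, against 54.2% of autosomal bins, and in the sample for 36 and 15, against 53.1%. The Klr counts are near the autosomal share. For the ratio the counts were 4 and 10, against 18.8%.

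The 3 arrays of scan 2 were compared with the 3 of scan 3, a comparison added after the data were seen. In the reference dye it called 34 of 73 member bins (30 higher and 4 lower in scan 2). Of autosomal bins 35.0% were called (14.6% higher and 20.3% lower). At an unadjusted p under 0.05 there were 41 member bins (56.2%), against 47.0%. In the sample dye the comparison called 37 (35 higher, 2 lower), against 32.6% (12.3% higher and 20.3% lower), and 48 (65.8%) unadjusted, against 45.8%. For the ratio it called 0, against 0% (7 unadjusted, 9.59%, against 10.5%). The reference difference was 1.18 ± 0.23 (SE, limma adjusted p = 0.0116) at 130.1 Mb and 0.97 ± 0.16 (adjusted p = 0.00729) at 36.2 Mb, the largest member differences of each complex. The scans also split the groups, with 1 myeloid and 2 secondary samples in scan 2 and 1 primary and 2 secondary samples in scan 3, and the part of the hybridisation in these differences was not tested.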

How the data were processed

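DNA of 8 samples was hybridised on 8 two-colour arrays. Per the file headers, Agilent Feature Extraction 10.5.1.1 made the deposited processed intensities by background subtraction, spatial detrending and linear dye normalisation; the submitters' processing notes name version 9.1.1. The deposited log10 ratios (the LogRatio column and the authors' series table) hold the same values, processed Cy5 over Cy3. Raw median intensities and background medians, as deposited, served only the normexp alternative, since the files used here hold no mean signals.

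Control and outlier-flagged spots were dropped, spots of a probe averaged, and log2 signals and ratios centred on each array's autosomal median. M12, annotated on mm8, took mm9 positions by probe name. Bins of 100 kb with at least 3 probes were tested with limma 3.58.1 (R 4.3.3, lmFit and eBayes) over all 8 arrays and 22888 bins, or 221356 probes, and checked on simulated data. Python 3.11.15, numpy 2.4.6 and pandas 2.3.3 did the rest. Block correlations were estimated on every other bin, and for the probe fit on a sparser subset of probes. Array numbers limit precision. The replicates are separate mice, except that the secondary samples derive from the same mouse 12.

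The members, intervals and promoter lists were chosen with earlier results of these data known. Bins and probes were named by the 3 lowest and 3 highest signals, the 3 largest SDs of the ratio and the 5 largest M12 reference differences per direction and complex. Probe sequences and an mm9 genome were not used here.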

Additional observations from a re-analysis of the deposited data

Results flagged for a closer look

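Of 36 groups of arrays examined for a value far from the rest, 3 held one. Chance alone flags about 1 group in 20 where groups are separate and not chosen by their values. The bins examined here were named for extreme signal or a large SD of the ratio on the same arrays. The groups also share arrays, so that rate cannot be used to judge the count. In the H2 bin at 33.6 Mb the M7 reference was at −0.713, apart from the next highest at −1.015 and the lowest at −1.228. In the Klr bin at 130.9 Mb the M7 reference was at 1.281, with the next at 0.72 and the lowest at 0.377. M7 was also the array with the fewest reference spots well above background. In the H2 bin at 34.1 Mb the secondary T-LBL M12.53 had a log2 ratio of −0.21, while M12.49, M12.50 and M12.52 lay between −0.001 and 0.034.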

How the results depend on the processing

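Of 119 alternative fits, 115 called 0 member features. Array weights called 61 member bins for secondary T-LBL against the reference, 11 for the M12 sample dye and 1 member probe for the M12 reference; in the first M12.49 took 98.8% of the secondary group's weight and 19895 of 22888 autosomal bins were called. Leaving out each array in turn, the M12 reference probe fit called 0 to 1 members, 1 only without M7. For the M12 calls with array weights or without M7, the share over all bins or probes is not given here. Those calls therefore cannot be read as specific to the complexes. No paired analysis was possible because all secondary samples derive from mouse 12, which leaves a single parent tumour to pair. The labels carry no replicate numbers, and those used here only name samples in accession order. Scan as a term was not run against the reference or for M12, which is alone in its scan, nor the mouse of origin as a block for M12.

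Of 82 alternative region means, 67 moved by less than the SD over arrays and 15 did not. Leaving out an array cannot move a mean by as much as that SD. Those alternatives are therefore among the 67 whatever the data, and they say nothing about stability. Normexp gave a mean ratio of 0.10 for H2 in primary T-LBL and −0.026 for Klr in secondary T-LBL, H2 signals of 0.18 (reference) and 0.18 (sample), and Klr signals of −0.0043 and −0.035. Centring on the mode gave −0.062 for the H2 ratio in secondary T-LBL, H2 signals of −0.17 and −0.16 and Klr signals of −0.60 and −0.56. Probes well above background gave Klr signals of −0.14 and −0.11, and the median of probes −0.20 and −0.20.

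The share of probes dim in both dyes was 9.93% (H2) and 17.6% (Klr) at −0.5, 0.915% and 5.03% at −2, and 0.392% and 0.943% by background flags. It was 5.88% for H2 with mode centring and 4.18% to 7.58% (H2) or 10.7% to 15.1% (Klr) leaving out each array. After normexp it was 0% in both complexes and over the autosomes, since its offset keeps some arrays from reaching −1. Signals near background limit every ratio in the dim Klr bins.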
